A study of Mus musculus with 12 samples.

Results

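Resting B cells of the mouse spleen made up 6 of the 12 RNA sequencing libraries of the series, 3 from female and 3 from male C57BL/6J mice aged 6 to 8 weeks, and were taken as the libraries whose label gives the cell type as CD43- B cells. No genotype change or treatment is stated for any group. RNA was extracted from 1000000 cells per library, and the series describes the material as pools of mice, so the error given below is the spread between pools. The other 6 libraries, 3 female and 3 male, hold naive CD4+ CD62L+ T cells of the same strain and age and served as a reference. Each library gives 1 value per gene for 41128 genes, named adjusted TPM by the authors. TPM is a length-corrected share of a library's transcripts, and how it was adjusted is not given in the sources used here, but the totals of the libraries differ. All levels below are in adjusted TPM. Sequencing depth is unknown, so precision was read from the lower and upper bounds deposited beside each value. The 6 B cell libraries are called female 1 to 3 and male 1 to 3, and no pairing of the sexes by these numbers is stated.

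A resting B cell is a small, non-dividing lymphocyte that carries a surface antibody as its antigen receptor and waits for antigen. The receptor signals through the Cd79a and Cd79b chains, captured antigen is shown to T cells on MHC class II molecules, and survival depends on signals such as BAFF. Selection for absence of CD43, the product of Spn, leaves out cell types that carry it, among them B-1 cells, plasma cells and most T cells.

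The label was first set against 5 defining genes of B cells. Cd79b, a signalling chain of the antigen receptor, had 884.0 in the lowest library, 955.2 at the median and 1115 in the highest. Cd79a, its partner, had 417.3, 480.7 and 572.6, and Ms4a1, which encodes the surface protein CD20, had 732.0, 757.9 and 852.0. All 3 were at 417.3 or more in every pool and at 1.996 or less in every T cell library. Pax5, the transcription factor that holds B cell identity, had 127.6, 146.1 and 166.5, and no T cell library exceeded 0.002183. Cd74, the invariant chain of MHC class II, had 3849, 4466 and 5189 and at most 16.92 in T cells. Spn itself had a mean of 6.99 against 168.4 to 200.7 in the T cell libraries. Of 11 T cell genes, 9 had a mean under 1 in B cells (Cd3d, Cd3e, Cd3g, Cd4, Cd8b1, Tcf7, Thy1, Lat and Zap70). Lck, a kinase of T cell receptor signalling, had 8.943, 9.902 and 13.41, and Cd8a had 0.5908, 1.38 and 2.309. The 11 genes added up to 11.15 to 17.79 in a B cell library and to 1861 to 2262 in a T cell library.

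The class II antigen presentation genes were among the highest genes of the cell. The 4 genes for the class II chains and the invariant chain, Cd74, H2-Aa, H2-Ab1 and H2-Eb1, took 0.853% to 1.596% of a library's total. H2-Aa, an alpha chain, had 2210, 2744 and 2201 in female 1 to 3 and 2911, 2208 and 2694 in male 1 to 3. H2-Eb1, a beta chain, had 1253, 1436 and 1686 as its lowest, median and highest value, and H2-Ab1, the other beta chain, had 1222, 1439 and 1620. The transcripts of these beta chain genes are 92.3% identical over 168 bases. Male 1, female 2 and male 3 were the 3 highest pools for both H2-Aa and Cd74, and the sexes overlapped for each of these genes. The genes that load peptides were lower than the chains. H2-Ob, part of the loading inhibitor H2-O, had a mean of 498.0, and H2-DMb2, part of the loading catalyst H2-M, had 425.7. H2-Oa, the partner of H2-Ob, had 115.4, H2-DMa, the alpha chain of H2-M, had 147.7, and H2-DMb1, its other beta chain, had 85.5. Ctss, the protease that trims the invariant chain, had 405.9, and Ciita, the coactivator that class II genes need, had 111.5. H2-Ob and H2-DMb1 did not follow H2-Aa between pools. H2-Ob had its highest value (531.3) in female 3 and its lowest (449.5) in male 1, the pool with the highest H2-Aa. H2-DMb1 had its highest value (100.3) in male 2 and its lowest (73.96) in male 3. Of the 12520 genes tested against T cells, 73.0% were past an adjusted p of 0.05 in limma (73.2% of the protein-coding genes), with 31.4% higher and 41.6% lower in B cells, so a call by itself does not set a list apart. Counts of calls against T cells given below on the deposited scale are to be read beside these shares. All 11 class II genes were higher in B cells, with a median log2 difference of 6.50 against -0.09 over all genes tested. The direction was the same under each scaling tried for all 11.

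Class II promoters carry a Y box, in which the letters CCAAT are read on either strand. The windows printed are those of the 6 class II genes that hold these letters within 110 bases before the start, and so were chosen for the match. Ctss and 1 of the 2 windows of H2-DMa hold no match, and the match in the other H2-DMa window begins 198 bases before its start. Each window holds 110 bases before the RefSeq transcript start and 15 bases from it on, on build GRCm38.p6, written 5′ to 3′ along the gene, and capitals mark CCAAT or its reverse complement ATTGG. The windows lie at chr17:34287809-34287933, minus strand (H2-Aa), chr17:34305757-34305881, plus strand (H2-Eb1), chr17:34153081-34153205, plus strand (H2-DMb1), chr17:34145139-34145263, plus strand (H2-DMb2), chr17:34092269-34092393, plus strand (H2-Oa) and chr17:34238795-34238919, plus strand (H2-Ob).
H2-Aa: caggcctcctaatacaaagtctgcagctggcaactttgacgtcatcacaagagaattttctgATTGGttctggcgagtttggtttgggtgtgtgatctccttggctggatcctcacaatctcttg
H2-Eb1: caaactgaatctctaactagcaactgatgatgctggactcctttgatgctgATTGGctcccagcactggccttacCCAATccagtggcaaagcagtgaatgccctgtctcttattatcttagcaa
H2-DMb1: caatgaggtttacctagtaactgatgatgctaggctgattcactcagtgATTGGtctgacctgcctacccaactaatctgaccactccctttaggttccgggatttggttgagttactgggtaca
H2-DMb2: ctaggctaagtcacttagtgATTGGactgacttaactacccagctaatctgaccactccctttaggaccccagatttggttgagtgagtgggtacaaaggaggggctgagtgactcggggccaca
H2-Oa: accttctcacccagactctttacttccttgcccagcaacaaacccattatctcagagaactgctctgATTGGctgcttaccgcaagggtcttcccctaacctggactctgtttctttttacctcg
H2-Ob: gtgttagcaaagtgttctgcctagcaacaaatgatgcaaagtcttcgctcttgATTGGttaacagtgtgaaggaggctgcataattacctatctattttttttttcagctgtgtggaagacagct

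The ATTGG match begins 48 bases before the start in H2-Aa, 59 in H2-Eb1, 61 in H2-DMb1, 90 in H2-DMb2, 43 in H2-Oa and 57 in H2-Ob. H2-Eb1 has a second match, CCAAT, 35 bases before its start. In the full windows of 300 bases given by RefSeq (250 before the start and 50 from it on), 7 of the 9 windows of class II genes held the letters, over 8 of the 11 genes, while Cd74, H2-Ab1 and Ciita have no entry. Of all 32851 windows, 37.4% held them, and of the windows of genes of at least 10 in B cells 37.6%. The share was 32.0% for B cell receptor signalling genes, 34.6% for B lineage transcription factors and 29.5% for ribosomal protein genes. A match in such a window is a description of its letters and not evidence of binding.

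Most genes at the top of the protein-coding ranking were of general use, but Cd74, H2-Aa, H2-Eb1 and H2-Ab1 were also there. Outside the antigen receptors and the mitochondrial genome, the 20 highest protein-coding genes were Lars2, Eef1a1, Cd74, Actb, Tpt1, H2-Aa, Rps24, Tmsb4x, Rpl13a, B2m, Rps3a1, H2-Eb1, H2-Ab1, Rps4x, Rpl17, Rpl10, Rpl23a, Rps6, Rpl19 and Rps9. Of these 20, 16 were among the 20 highest in all 6 libraries. The mean of Lars2 was raised by female 1 and male 1, as described below, and its rank ran from 1 to 4. Eef1a1, which brings transfer RNA to the ribosome, had 4334, 5116 and 6099 as its lowest, median and highest value and held rank 1 or 2 in every pool. Actb, the main cytoplasmic actin, had 3698, 4162 and 4692. Tpt1, a growth-related protein whose messenger RNA is controlled at translation, had 2355, 2722 and 2997, and Tmsb4x, which binds actin monomers, had 1816, 2074 and 2220. The order of these genes was nearly fixed, with Cd74 at rank 2 or 3 and Actb at rank 3 or 4 in each library. Across pools the ranges of Eef1a1 (5160 ± 661, SD, n = 6), Cd74 (4480 ± 527) and Actb (4193 ± 468) overlapped, but within each of the 6 libraries Eef1a1 was above Cd74 and Cd74 above Actb. H2-Eb1 (1468 ± 176) was above H2-Ab1 (1430 ± 168) in 5 of 6 libraries. B2m, the light chain of class I molecules, had a mean of 1589 and moved between ranks 9 and 14.

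**Figure D1:**
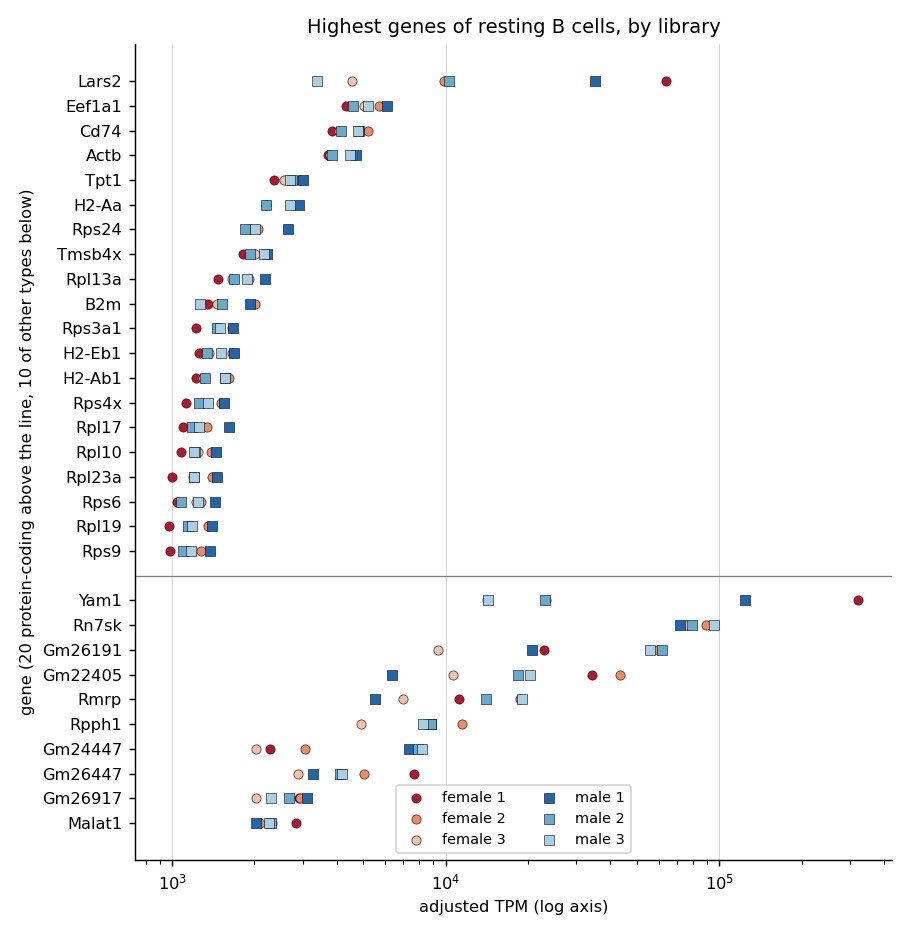
Adjusted TPM (log axis) of the 20 highest protein-coding genes and the 10 highest genes of other types in resting B cells, with 1 point per library (circles female, squares male). Most protein-coding genes stay within a narrow band, while Lars2 and Yam1 are far higher in female 1 and male 1 than in the other 4 libraries.

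Among the 100 highest protein-coding genes, 66 encode ribosomal proteins or carry a ribosomal protein symbol. The gene at rank 100 had a mean of 499.7. Of the top 100, 89 were in the top 100 of all 6 pools, and 90 were also in the top 100 of T cells. Against T cells, 9 were higher, 82 were lower and 9 were not past the threshold on the deposited scale. The lower calls depended on the scaling, with 9 higher, 31 lower and 60 not past the threshold when totals were rescaled to 1000000, and 9, 78 and 13 with median-ratio scaling. The 9 higher ones were Cd74, H2-Aa, H2-Eb1, H2-Ab1, Cd79b, Ms4a1, H3f3a, a replacement histone (mean 954.7), Ly6e, a membrane-anchored protein (789.7), and Serinc3, a membrane protein (499.7). H3f3a, Ly6e and Serinc3 were named after their values were seen. The 5 highest antigen receptor genes were Ighm, Igkc, Iglc2, Iglv1 and Igkv10-96. Ighm, the constant region of IgM, had 2408, 2555 and 2996, and Igkc, the kappa light chain constant region, had 883.1, 997.5 and 1181. Iglc2, a lambda constant region, had 421.0, 482.5 and 521.7, below Igkc in every pool. Of these 5 genes Ighm also had a level of 157.4 to 214.6 in T cells, while none of the other 4 exceeded 1.853 there. Switched isotypes were low: the mean was 14.2 for Ighg2b, 6.73 for Ighg2c, 5.69 for Igha, 5.38 for Ighg3, 2.37 for Ighg1 and 0.233 for Ighe. Variable segments were spread out, since 169 of 204 had a mean of at least 1, 80 of at least 10 and 1, Iglv1 (148.3 to 201.3), of at least 100. Igkv10-96, the highest kappa variable segment, had 68.0 to 91.7.

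RNAs other than messenger RNA took a large part of the signal, and the part differed between pools. Protein-coding genes took 42.7%, 54.7% and 68.0% of the total in female 1 to 3, and 58.1%, 56.8% and 54.7% in male 1 to 3. The female mean was 55.1% ± 12.6 (SD, n = 3) and the male mean 56.5% ± 1.71 (SD, n = 3), with p = 0.7 in a two-sided exact permutation test, in which 3 against 3 cannot give less than 0.1. Rn7sk, the 7SK RNA that restrains transcription elongation (chr9:78175303-78175633, GRCm38), took 7.65% to 13.7%, the largest share of any single gene in the 4 libraries other than female 1 and male 1. Gm26191 and Gm22405, named Rn7s2 and Rn7s1 in the annotation, are copies of the 7S RNA of the signal recognition particle and took 3.49% to 13.8% together. Their transcripts are identical over all 300 bases, so the split between the pair is uncertain and only the sum is used. Rmrp and Rpph1, the RNA parts of the RNases MRP and P, took 1.86% to 4.002%. Small nucleolar, Cajal body and spliceosomal RNAs, which guide and carry out RNA modification and splicing, took 2.54% to 6.77%. The mitochondrial genome took 4.47% to 6.40%, of which 2.55% to 3.84% was its ribosomal RNAs. Of its protein-coding genes, mt-Co1, a subunit of cytochrome oxidase, was highest with a mean of 6778. Other high noncoding RNAs were Gm24447, a 7SK-like RNA described with the sexes (mean 5141), and the small nucleolar RNA Gm26447 (4513). Next came Gm26917, annotated as a long intergenic RNA (2654), and Malat1, an RNA of nuclear speckles (2308).

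**Figure D2:**
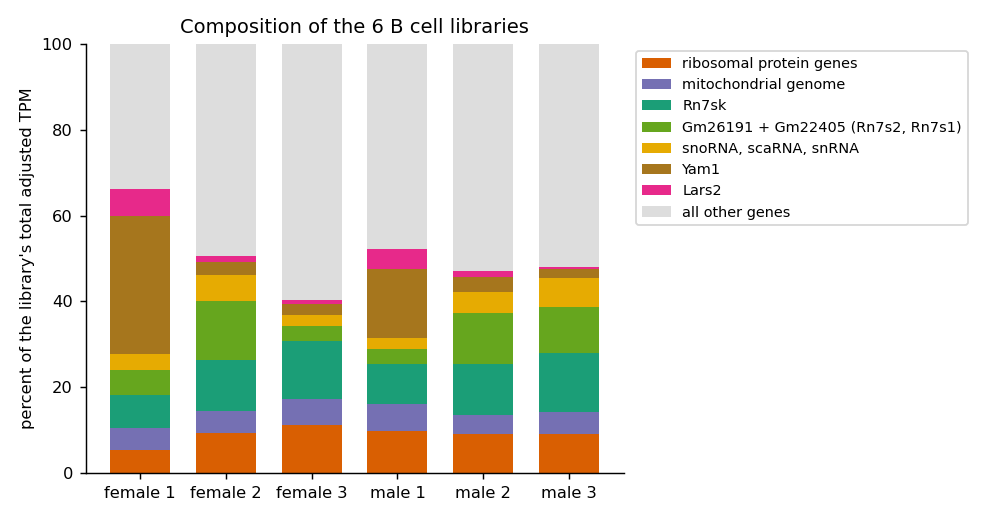
Percent of each library's total adjusted TPM taken by ribosomal protein genes, the mitochondrial genome, abundant noncoding RNAs and Lars2, as stacked bars for the 6 B cell libraries. Yam1 and Lars2 together take 38.5% of female 1 and 20.6% of male 1, and 2.51% to 4.97% of the other 4.

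Female 1 and male 1 stood apart in 2 of the highest genes, among others. Yam1, at chr17:39846958-39848788, is annotated as a long intergenic RNA gene, which the annotation names Gm42418. It had 321581, 23315 and 14179 in female 1 to 3 and 124230, 23025 and 14221 in male 1 to 3. Lars2, the mitochondrial leucyl-tRNA synthetase (chr9:123366927-123462666), had 63837, 9894 and 4532, and 35247, 10315 and 3391. For both genes female 1 was highest and male 1 second, far above the other 4 libraries. No alignment of at least 90% identity over at least 50 bases was found between their transcripts. Gm26917, also annotated as a long intergenic RNA, lies beside Yam1 at chr17:39843013-39846341. Whether the signal counted for Yam1 comes from a long intergenic RNA, and that for Lars2 from its messenger RNA, was not tested. The deposited interval does not cover the difference between pools in Yam1 and Lars2. Their upper and lower bound differed by a median factor of 1.02 for each. With Lars2 left out, protein-coding genes added up to 384361 ± 18991 (SD, n = 6) across the pools, while the totals of all genes ran from 561020 to 1000000. The genes of the mitochondrial genome together gave 51535 in female 1 and 49461 in male 1, against 29982 to 39914 in the other pools. Its ribosomal RNA mt-Rnr1 had 5496 and 3969, against 2157 to 2854. The genes mt-Co2, mt-Co3 and mt-Atp6 did not share that order. Results that rest on a library's total are given below with and without Yam1, Lars2, or female 1 and male 1.

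Over the whole table, 11530 genes had a mean of at least 1 in B cells, 9867 of them protein-coding, and 29006 genes were under 1 in all 6 libraries. A single library held 11420 to 11543 genes of at least 1. By mean level, 25121 genes were under 0.1, 4477 from 0.1 to 1, 5040 from 1 to 10, 5853 from 10 to 100, 574 from 100 to 1000 and 63 at 1000 or more. Protein-coding genes were 74.4% of the class from 1 to 10, 5558 of the 5853 genes from 10 to 100 and 58.7% of the top class. The top class also held 9 small nucleolar RNAs, 4 miscellaneous RNAs, 3 long intergenic RNAs, 2 Cajal body RNAs and 2 immunoglobulin constant genes. A gene kept its class in all 6 libraries for 5265 of the 5853 genes from 10 to 100, in 79.2% of cases from 1 to 10, in 74.6% from 100 to 1000 and in 57.1% at 1000 or more. Only 27 genes spanned classes that are not neighbours, 13 of them protein-coding. Of these 13 protein-coding genes, the 5 with the highest mean were Hbb-bs and Hba-a2, which encode globin chains of red blood cells, and the Y-linked Eif2s3y, Ddx3y and Kdm5d.

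The 10 highest genes took 27.4% to 58.0% of the total, the 100 highest 46.8% to 69.7% and the 1000 highest 70.8% to 84.0%. Female 1 was the most concentrated library and female 3 the least. Among protein-coding genes without Lars2, the same shares were 8.58% to 10.0%, 28.9% to 32.5% and 60.7% to 63.2%, a narrower range across the 6 pools. Across 10387 tested protein-coding genes outside the mitochondrial genome, Spearman's rho between 2 B cell libraries lay between 0.987 and 0.993 over the 15 pairs, a description across genes, which are not independent replicates.

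Precision rose with abundance, but the spread between pools did not fall steadily with it. Upper and lower bound in a library differed by a median factor of 1.30 to 1.52 for genes from 1 to 10, 1.11 to 1.18 from 10 to 100, 1.05 to 1.07 from 100 to 1000 and 1.03 at 1000 or more. Under 0.1 it was 182.4 to 194.7, so such values say little more than that a gene is low. Among protein-coding genes of at least 10, the widest intervals belonged to Ddx3y, mt-Nd4l and BC037034, with median ratios of 6.03, 3.27 and 3.23. Ddx3y is Y-linked and near 0 in the 3 female libraries. The SD between pools of 1 sex, on the log2(adjusted TPM + 1) scale and pooled over both sexes, had a median of 0.149 for genes from 1 to 10, 0.112 from 10 to 100, 0.146 from 100 to 1000 and 0.201 at 1000 or more. The median reach of the interval to either side of the value, on the same scale, went from 0.173 to 0.0886, 0.0404 and 0.0224. In 70.1% of the 6490 genes of at least 10, the SD between pools was the larger of the pair. The intervals of 2 pools of 1 sex were separate for 29.1% to 39.9% of these genes, and those of a female and a male pool for 26.4% to 38.9%.

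**Figure D3:**
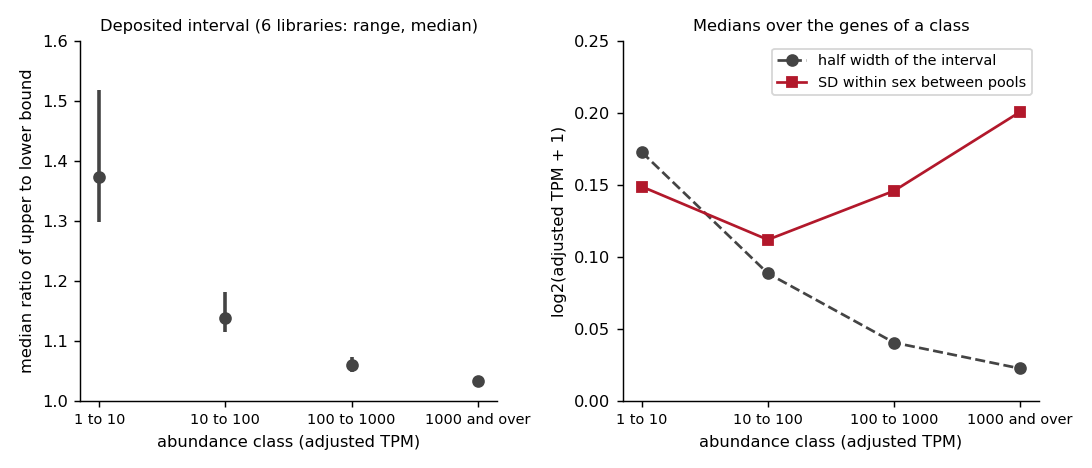
Left, median ratio of the deposited upper to lower bound by abundance class, with the point at the median and the bar over the range of the 6 B cell libraries. Right, the median reach of the interval to either side and the median SD within sex between pools on the log2(adjusted TPM + 1) scale, which part from the class of 10 to 100 upwards and reach 0.0224 and 0.201 in the top class.

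The highest genes moved together between pools. Of the 100 highest protein-coding genes, 77 had their highest value in male 1 and 75 their lowest in female 1. Of 85 ribosomal protein genes of at least 10, 74 were highest in male 1 and 76 lowest in female 1. Over all 6116 protein-coding genes of at least 10, these shares were 32.5% and 33.5%. The ribosomal protein genes together gave 53501, 69281 and 62457 in female 1 to 3 and 75305, 60468 and 63642 in male 1 to 3. Female 1 and male 1 are also the 2 libraries highest in Yam1 and Lars2, and the part of these RNAs in the shift was not tested. Without this pair of libraries, the median SD of genes of at least 10 went from 0.115 to 0.0982.

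The steadiest protein-coding genes were Rnf167, Rab3gap2, Tbc1d13, Map3k4 and Sidt2, with an SD of 0.0044 to 0.0122. Rnf167, a ubiquitin ligase, had 91.6, 91.1 and 91.0 in female 1 to 3 and 94.2, 94.6 and 94.2 in male 1 to 3. These genes were chosen for that small spread, so it is a description. For 90% of protein-coding genes of at least 10 the SD was at most 0.199, and their median was 0.112. Other gene types varied more, with a median of 0.206 for 80 immunoglobulin variable genes, 0.266 for 37 long intergenic RNAs, 0.649 for 10 Cajal body RNAs, 1.02 for 55 small nucleolar RNAs and 1.35 for 20 spliceosomal RNAs.

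The protein-coding genes with the largest spread fell into sets that moved in different pools. The 10 largest were Hbb-bs, Hba-a2, Hba-a1, Hspa1b, Hspa1a, Lars2, Hbb-bt, Fos, Fosb and Zfp36l2. Hspa1b, an inducible heat shock chaperone, had 15.7, 61.1 and 3.449 in female 1 to 3 and 5.31, 58.6 and 66.8 in male 1 to 3. Hspa1a, whose transcript is 99.2% identical to it over 2201 bases, had 4.203, 26.4 and 1.043, and 1.49, 14.5 and 28.3. Both were high in female 2, male 2 and male 3, low in female 3 and male 1, and between in female 1. Snord17, a small nucleolar RNA, had 587.1, 1999 and 169.4, and 192.0, 1300 and 2309. Of 85 small nucleolar, Cajal body and spliceosomal RNA genes of at least 10, 68 had their 2 lowest values in female 3 and male 1. The share over all genes is not given here, so this count describes these RNAs alone. The summed Gm26191 and Gm22405 took 13.8%, 11.9% and 10.8% of the total in female 2, male 2 and male 3 and at most 5.72% in the other libraries. Hsph1 and Hspa8, chaperones that heat shock also induces, did not share that order and were highest in male 2 alone, with 66.6 and 1838.

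Fos, an immediate early transcription factor that stimulation and cell handling induce, had 173.6, 65.1 and 52.1 in female 1 to 3 and 110.5, 76.1 and 16.6 in male 1 to 3. Fosb, its relative, had 54.4, 18.2 and 21.8, and 35.3, 26.2 and 5.653. Female 1 was highest and male 3 lowest for both, as for Dusp1, a phosphatase of the same early response (52.6 and 8.25). Zfp36l2, which promotes decay of messenger RNAs, had 136.6, 47.7 and 162.2, and 142.6, 199.5 and 46.8. Female 2 and male 3 were low in Zfp36l2 and also in Cxcr4, the receptor for the chemokine CXCL12 (117.9 and 62.8 against 170.3 to 358.0), in Sik1, a kinase (12.1 and 12.1 against 36.5 to 46.6), and in the glucocorticoid-induced genes Tsc22d3 (216.8 and 170.9 against 443.0 to 509.0) and Ddit4 (18.8 and 15.4 against 26.3 to 59.1). Cxcr4, Sik1, Tsc22d3, Ddit4, Dusp1, Snord17, Hsph1 and Hspa8 were named after their values were seen. The globin gene Hbb-bs had 0.210, 27.3 and 26.4, and 154.2, 1.94 and 74.9, so that male 1 and male 3 were highest and female 1 and male 2 lowest.

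**Figure D4:**
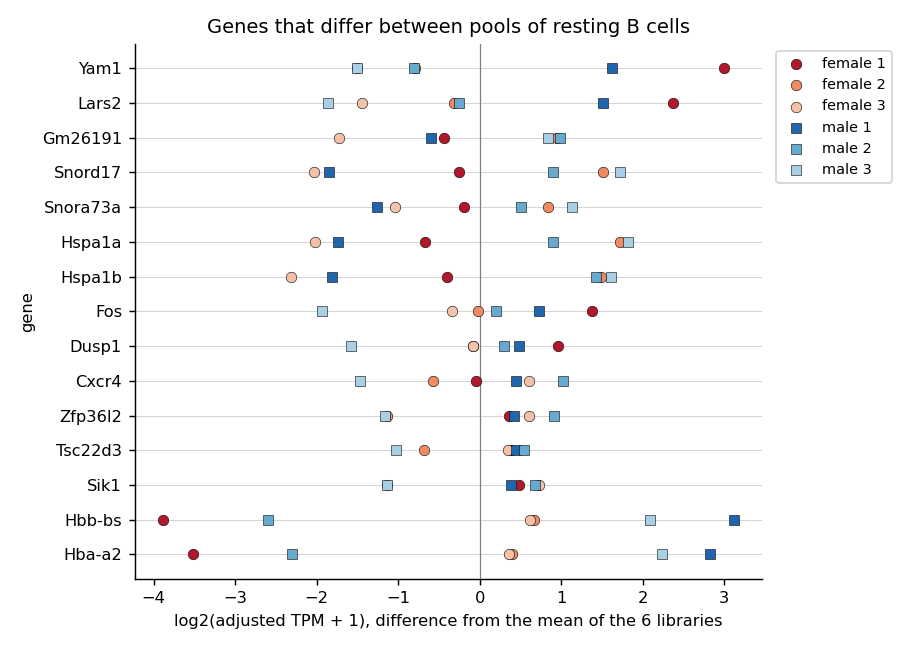
Difference of log2(adjusted TPM + 1) from the mean of the 6 B cell libraries for 15 genes that differ between pools, with 1 point per library (circles female, squares male). Female 1 and male 1 are highest for Yam1 and Lars2, female 2, male 2 and male 3 for Snord17 and Hspa1b, and male 1 and male 3 for the globins Hbb-bs and Hba-a2.

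Every gene listed for the antigen receptor pathway was expressed. All 24 genes had a mean of at least 17.9, and 11 of at least 100. After Cd79b and Cd79a, the highest was Ptpn6, the phosphatase SHP-1 that dampens the receptor, with 323.1, 350.3 and 383.2. Bank1, a scaffold, had a mean of 289.3, and Syk, the kinase that starts the cascade, had 264.0. The Src family kinases Lyn and Blk had 201.8 and 160.8, the adaptor Blnk 126.0, the lipase Plcg2 116.1 and the kinase Btk 76.9. Members were steady between pools, with a median SD of 0.0839 against 0.112 for protein-coding genes of at least 10. Against T cells, 20 were higher in B cells, 3 were lower (Fyn, Pik3cd and Pik3r1, a Src family kinase and a pair of phosphoinositide 3-kinase subunits) and Vav1, an exchange factor, was not past the threshold. The 3 genes of the lower direction had log2 differences of -2.70, -1.08 and -0.74, and Pik3r1 was no longer past the threshold once all totals were set to 1000000, when Vav1 was higher in B cells. That rescaling moved the median log2 difference of all genes tested from -0.09 to 0.26 and the share of calls that were higher in B cells from 43.0% to 71.6%, while a median-ratio scaling gave 0.01 and 52.6%. Fyn, at 17.9, was the lowest of the list, against 111.3 to 129.1 in T cells.

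Of 25 surface and trafficking genes all were at 10 or more and 17 at 100 or more. Ptprc, the leukocyte phosphatase CD45, was highest with a mean of 719.3, followed by Cd24a, an adhesion glycoprotein (379.7), and Cd22, an inhibitory lectin (352.7). The lowest was Cd86, a costimulatory ligand that activation raises, with 17.3, 18.0 and 24.1. Against T cells 17 were higher and 8 lower in B cells. Among the lower ones were Ccr7, S1pr1, S1pr4 and Gpr183, receptors of lymphocyte traffic, the integrin chains Itgb7 and Itgal, and Ptprc. Only Ccr7, S1pr1 and Itgb7 stayed past the threshold with totals rescaled to 1000000. Cxcr5, which guides B cells into follicles, had a mean of 149.6 against at most 3.392 in T cells. Cr2, the complement receptor CD21, had 226.4 under the identifier that the annotation holds, and the table carries a second identifier with the same symbol that was not used, so its level is uncertain.

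Among the listed genes of survival and cytokine signals, which are not all receptors, Mcl1, an inhibitor of cell death, was highest (313.5). It was followed by Ltb, lymphotoxin beta (285.7), and Tnfrsf13c, the BAFF receptor (185.4). Bcl2l1, the death inhibitor Bcl-xL, was lowest with 1.459, 1.908 and 2.278, while Bcl2 had 34.7, 38.7 and 49.7. Cd40, the receptor for T cell help, had 57.5, and no T cell library exceeded 0.00498. Of 15 genes, 7 were higher in B cells, 5 lower and 3 not past the threshold. Over all genes tested, 31.4% were higher and 41.6% lower. With rescaled totals the counts of the list were 9, 1 and 5.

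The B lineage transcription factors all had a mean of at least 4.89. The 3 highest were Ets1 (391.6), Spib (253.3) and Foxp1 (216.1), and the lowest was Pou2f1 (4.89), a broadly expressed octamer factor for which the table also holds a second identifier that was not used. Pou2af1, its B cell coactivator, had 202.6, and Ebf1, which specifies the lineage together with Pax5, had 115.3. Of 20 factors, 15 were higher in B cells, 3 lower (Ikzf1, Ets1 and Klf3) and 2 not past the threshold (Foxo1 and Klf2). Ets1, the highest factor of B cells, was higher still in T cells (700.3 to 817.9). Ikzf1 was no longer past the threshold with rescaled totals.

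**Figure D5:**
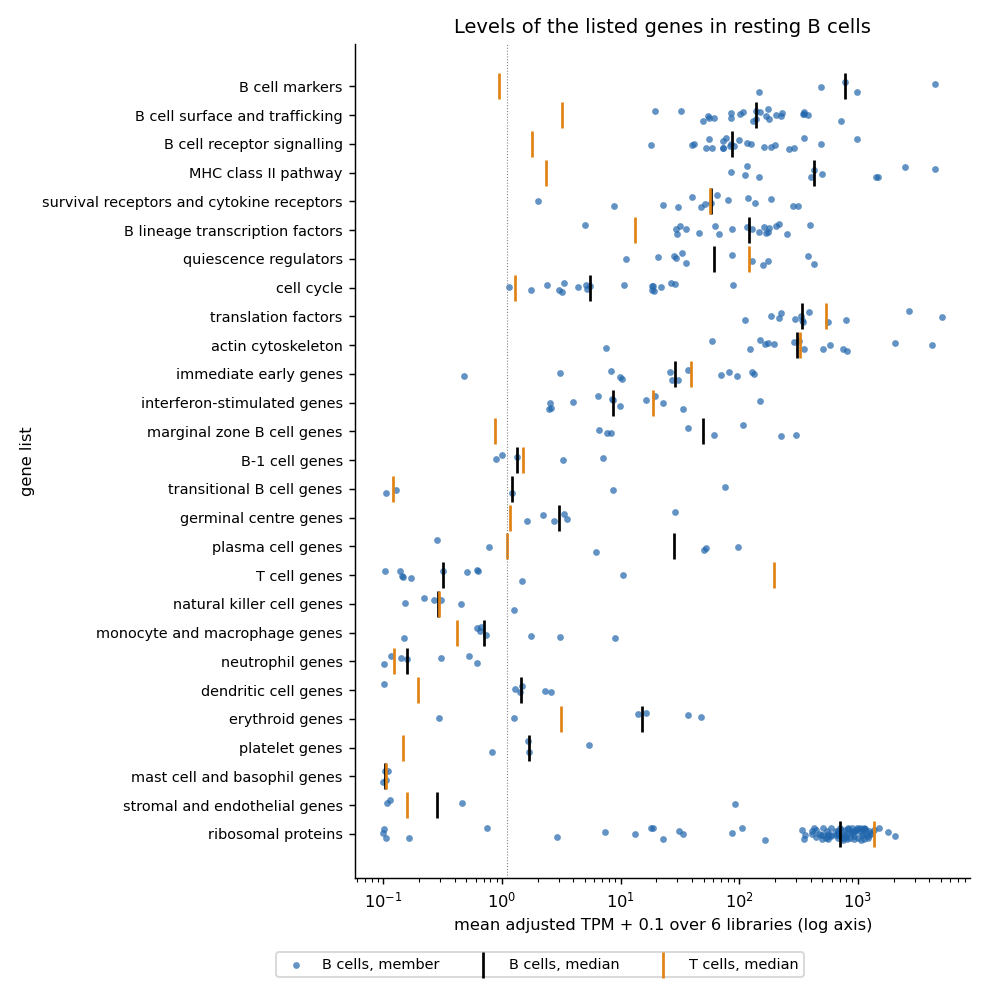
Mean adjusted TPM plus 0.1 (log axis) over the 6 B cell libraries for each gene of the lists, with 1 point per gene, a black bar at the median of the list in B cells and an orange bar at its median in T cells. The dotted line marks a mean of 1, which most genes of other cell types do not reach, while the class II, receptor and transcription factor lists lie mostly above 10.

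Genes of quiescence were present beside a low level of cell cycle genes. Btg1, an antiproliferative factor, had 359.5, 419.2 and 503.9, Tsc22d3 had a mean of 378.2 and Klf2, a factor of resting lymphocytes, had 173.9. The lowest of 12 was Tob1, another antiproliferative factor (11.1). None of the 12 was higher in B cells, 7 were lower and 5 were not past the threshold, and with rescaled totals Klf3 and Pik3ip1 were lower and Tsc22d3 was higher. Among 19 cell cycle genes, Pcna, the sliding clamp of DNA replication, was highest (88.3), followed by the replicative helicase subunits Mcm7 (28.4) and Mcm6 (26.4). Genes of mitosis were lower: Mki67 had 5.981, 11.3 and 14.8, Top2a 11.6, 20.4 and 23.5, and Plk1, the lowest, 0.514, 1.14 and 1.37. Though low, 13 of the 19 were higher in B than in T cells (Mki67, Top2a, Ccna2, Ccnb1, Ccnb2, Cdk1, Aurkb, Bub1, Plk1, Birc5, Rrm2, Mcm3 and Mcm5), Tyms was not past the threshold, and Mcm2, Mcm4, Mcm6, Mcm7 and Pcna were lower under the authors' scaling and not past the threshold with rescaled totals.

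Ribosomal protein genes and translation factors lay below their levels in T cells on the deposited scale. Of 92 genes with a ribosomal protein symbol, paralogs and the ribosomal protein partner Rps19bp1 included, 85 had a mean of at least 10 and 78 of at least 100, led by Rps24 (2070), Rpl13a (1795) and Rps3a1 (1492). Under 1 were Rpl3l, Rpl10l, Rpl39l, Rpl36-ps4 and Rpl9-ps1. Of 88 tested, 85 were lower in B cells and 3 not past the threshold, with a median log2 difference of -0.89. With totals rescaled to 1000000, 38 were lower, 3 higher and 47 not past the threshold, and with median-ratio scaling 85 were lower and 2 higher. Of 13 translation factors led by Eef1a1, Tpt1 and Eef2 (791.2), 11 were lower in B cells, and 2 with rescaled totals (Eef1b2 and Tpt1). Eef1d was the lowest, at 112.0. Actin cytoskeleton genes, led by Actb, Tmsb4x and Coro1a (812.4), gave 1 higher (Lsp1), 8 lower and 7 not past the threshold of 16, and 3, 1 and 12 with rescaled totals. Wasl was the lowest of them, at 7.51.

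The 10 immediate early genes of at least 10, of 14 in the list, had a median SD between pools of 0.495. The 3 highest were Jund (133.5), Zfp36 (127.1) and Junb (96.2), Egr2 was the lowest detected (3.01), and Atf3 was under 1. Of 13 tested, 2 were higher in B cells (Egr3 and Zfp36), 4 lower and 7 not past the threshold, and with rescaled totals 6, 1 and 6. Their sum ran from 393.2 in male 3 to 973.5 in female 1. The 13 interferon-stimulated genes included Ifi35 (33.4) and Stat2 (22.5), with Ifit1 lowest (2.38), and 8 were lower, 2 higher (Stat2 and Mx1) and 3 not past the threshold against T cells under each of the 3 scalings. Male 3 had the lowest sum of these genes too, 234.0 against 267.9 to 308.1 in the other pools.

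Genes that mark other B cell states gave a graded picture. Of 8 marginal zone genes, Plac8 (303.2), Cr2 and Mzb1 (107.1) were highest and Asb2 was lowest (6.49). S1pr3, the sphingosine receptor that places cells in the marginal zone, had 5.412, 8.058 and 10.95. The B-1 genes were low, with Spn at 6.99, Bhlhe41 at 3.15 and Itgam at 1.25, and with Cd5 and Zbtb32 under 1. Of transitional B cell genes, Vpreb3 had 75.3, Cd93 8.48 and Rag1 1.12, while Rag2 and Dntt were under 1. Germinal centre genes were few in signal: Bcl6, the repressor that drives the reaction, had 28.5, Fas 3.43, Mybl1 3.22, Gcsam 2.14 and S1pr2 1.53. Gcsam went from 0.646 to 4.69 between pools, and Gcsam, Mybl1 and S1pr2 had SDs of 0.562 to 0.645. Of plasma cell genes, the joining chain gene of polymeric antibodies, listed as Igj, had 50.7, 106.9 and 130.9, Irf4 had 52.6, Xbp1 50.1 and Sdc1 6.15, and Prdm1 and Tnfrsf17 were under 1. In these bulk libraries, fewer cells of a type and less RNA per cell cannot be told apart.

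Markers of cells outside the lineage were near the bottom of the table with 3 exceptions. All 7 neutrophil genes (S100a8, S100a9, Ngp, Camp, Ltf, Elane and Mpo) and all 4 mast cell and basophil genes (Mcpt8, Cpa3, Ms4a2 and Fcer1a) had a mean under 1. So did 5 of 6 natural killer cell genes (Nkg7, Klrb1c, Ncr1, Gzma and Gzmb, with Prf1 at 1.18), 5 of 8 monocyte and macrophage genes (Csf1r, Cd14, Vcam1, Hmox1 and C1qa) and 3 of 4 stromal and endothelial genes (Col1a1, Col3a1 and Cdh5). The first exception was Pecam1, an adhesion protein shared by endothelium and leukocytes, at 92.0 in B cells and 87.5 to 97.0 in T cells. The second was a low macrophage and dendritic cell signal, with Lyz2, or lysozyme, at 6.817, 9.082 and 11.1, the macrophage gene Emr1 at 2.98 and Cd68 at 1.64. Dendritic cell genes were at 2.48 for Itgax, 2.22 for Flt3, 1.37 for Zbtb46, 1.32 for Clec9a and 1.20 for Xcr1, with Siglech under 1. The sum of the 8 monocyte and macrophage genes ran from 12.6 to 17.0 in B cells and from 1.44 to 10.7 in T cells. The third was a signal of erythroid and platelet genes. The 6 erythroid genes added up to 4.22, 71.0 and 65.4 in female 1 to 3, to 346.3, 9.14 and 197.7 in male 1 to 3 and to 3.46 to 77.6 in T cells. The largest parts were Hbb-bs (mean 47.5), Hba-a2 (36.6), Hbb-bt (16.2), Hba-a1 (13.9) and Alas2 (1.15). Globin copies share 94.9% to 99.8% of their aligned sequence, so their sum is firmer than each. The 4 platelet genes added up to 4.76 to 17.8, highest in female 2 and male 3, with Ppbp at 5.33, Pf4 at 1.59, Itga2b at 1.56 and Gp9 under 1. The part of these other cells in the differences between pools was not tested.

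Few genes differed between the sexes. Between female and male pools, 18 of 12520 genes (0.144%) were past the threshold of limma, and 373 were under 0.05 before adjustment. Females were higher for 7 of the 18 (0.0559% of the genes tested) and males for 11 (0.0879%). The sample labels also carry a digit of unstated meaning. It is the same in all female B cell libraries, differs in all male ones and is swapped between the sexes in T cells. In this comparison it cannot be told apart from sex. Xist, the RNA of the inactive X chromosome, was at 114.0 to 146.4 in the female and at most 0.0142 in the male pools. The Y-linked Eif2s3y, Ddx3y, Kdm5d and Uty were at 23.3 to 81.5 in males and at most 0.0001893 in females, so each library carried its labelled sex. The X-linked demethylases Kdm6a, a histone H3 lysine 27 demethylase (chrX:18162575-18279936), and Kdm5c were higher in females. Kdm6a had 39.5 to 43.0 in females and 23.8 to 26.9 in males, a log2 difference of 0.67 (SE 0.07, limma adjusted p = 0.002), without overlap. Kdm5c had 38.2 to 39.4 and 26.3 to 27.4, a log2 difference of 0.51 (SE 0.06, limma adjusted p = 0.002). In all, 8 of the 18 genes lie on X or Y. An interaction term asked whether the sexes differed by another amount in T cells, and limma called 0 genes by adjusted p and 295 by an unadjusted p of 0.05. With 3 libraries per group, this does not show that the differences are equal. In T cells Xist had 44.3 to 66.3 in females, lower than in B cells. Kdm6a had 38.7 to 42.0 in female and 23.8 to 27.2 in male T cell libraries, near its B cell values. Neither demethylase was past the threshold with the B cell libraries fitted alone (log2 differences of 0.67 for Kdm6a and 0.51 for Kdm5c), without female 1 and male 1 (0.64 and 0.50) or with rescaled totals (0.60 and 0.45).

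Of the 10 sex-called genes outside X and Y, 8 have a near-identical copy with a higher mean in B cells. Copies were sought among the transcripts of all genes of the table, at 95% identity or more over at least 50% of the called transcript. Rpl35a-ps3, a processed pseudogene on chr17:29136972-29137304, had 8.84, 7.40 and 13.6 in females and 2.05, 2.01 and 1.39 in males. It is 99.7% identical to Rpl35a over 333 bases, and with all its copies summed the females had 702.5 to 880.5 and the males 817.3 to 982.9. RP23-8J15.5 and RP23-8J15.4, nuclear copies of mitochondrial DNA on chromosome 1, match mt-Nd3 (99.7% over 345 bases) and mt-Co3 (100% over 783 bases). RP23-8J15.5 had 165.6, 116.2 and 185.5 in females and 801.5, 360.0 and 528.2 in males, while mt-Nd3 had 763.2, 790.9 and 789.8 and 611.2, 454.5 and 516.3, the opposite direction. Summed, the pair gave 907.0 to 975.3 in females and 814.5 to 1413 in males. Gm24447 had 2288, 3056 and 2030 in females and 7343, 7944 and 8185 in males and shares 241 bases without a mismatch with Rn7sk, whose level is at least 72012 in every pool. For all 8 genes (these 4, Rps10-ps2, Gm7027, Gm9385 and Rpl9-ps7) the sexes overlapped once copies were summed. The parent gene is the larger part of each sum except that of RP23-8J15.5 in male 1 and male 3. Each sum other than that one therefore follows mainly the parent, and its overlap says little about the copy itself. With the sums in place of the 8 values, limma called 9 genes, of which 8 were on X or Y and the other was the small Cajal body RNA Gm26347 (1.36 to 1.77 in females and 0.439 to 0.711 in males). Among the unsummed values Gm26347 was not past the threshold with the B cell libraries fitted alone (limma adjusted p = 0.15), without female 1 (0.057), male 1 (0.052) or male 2 (0.068), or without female 1 and male 1 together (0.18). Map2, a microtubule protein, had 1.41 to 1.71 in females and 0.699 to 0.902 in males. It was past the threshold before copies were summed and not after. In T cells, where the digit of the labels is swapped, the sexes overlapped for the 8 genes with copies other than Rpl35a-ps3. Gm24447 had 5457 to 7872 in female and 5487 to 6938 in male T cell libraries. Rpl35a-ps3, Gm26347 and Map2 were higher in female T cell libraries without overlap. The calls on X or Y also kept their direction there. The part of the digit was not tested.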

How the data were processed

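RNA of CD43- resting B cells and naive CD4+ CD62L+ T cells was sequenced by the authors after ribosomal RNA depletion with a stranded total RNA kit and ERCC spike-in RNA. The submitters' processing notes name Trim Galore, FastQC, STAR and mm10, while the quantifier, the annotation, the adjustment of TPM and the level of the intervals are not given in the sources used here. The deposited signal values are adjusted TPM with a lower and an upper bound per gene and library. They are not counts, none equals 0, and depth is unknown. The molecule field of the labels names genomic DNA. How the B cells were isolated is described in less detail than the T cell sort.

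From these values, means, SDs and ranks were computed, and log2(adjusted TPM + 1) was tested with limma 3.58.1 in R 4.3.3 (4 groups of 3, 12 libraries in 1 fit, trend, Benjamini-Hochberg adjustment) for 12520 genes of at least 1 in at least 3 libraries. Fold changes on this scale understate those of low genes. SDs within sex pool both sexes. The call threshold was an adjusted p of 0.05. On simulated data the fit recovered 97.8% of 200 genes changed by a log2 of 1 between B and T cells and 91.6% between the sexes, with 4.7% and 5% false calls. The noise was drawn independently for each gene and library, so shifts shared by many genes of a pool were not in it. In the data 73.0% of genes were called between B and T cells, so these rates hold for the simulated setting only. Types and coordinates came from GENCODE M21 (GRCm38), which held 40254 of 41128 identifiers (97.9%), and promoter windows from RefSeq. Copies were aligned with blastn 2.17.0+.

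Genes were named by rank, by interval width, by spread, by class change, by the 5 largest sex differences each way without overlap, and, for each list, as the 3 highest and the lowest detected members, all members of lists of 6 or fewer and the symbols of members under 1. The members and lists were chosen with earlier results of these data known. Some members of these lists are counted in their totals but not reported by name here.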

Additional observations from a re-analysis of the deposited data

How the results depend on the processing

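Without a filter on low values, 24591 of 41128 genes were called between B and T cells and 10985 between the sexes. Of these 41128 genes, 25121 had a B cell mean under 0.1, where upper and lower bound differed by a median factor of 182.4 to 194.7. The unfiltered counts are therefore not comparable with those of the 12520 filtered genes. With the filter and an absolute log2 difference of at least 1, the B against T count was 2705 of 12520. The sex count was 44 with totals set to 1000000, 10 without female 1 and male 1, and 9 with near-identical copies summed, where Rpl35a-ps3 went to -0.16 and Gm9385 to -0.15 (log2, females minus males). Those with libraries or copies changed, like the share without Lars2, were chosen after seeing the data. Same-numbered female and male pools had correlations of -0.17, -0.04 and -0.34 in their deviations. With 3 pools per sex this cannot decide whether the numbers pair them, and female 1 and male 1 were both highest in Yam1 and Lars2. The B cell libraries alone gave 5 genes without and 5 with a replicate block. The 100 highest genes took 56.8% of the total on average, 33.7% among protein-coding genes and 30.4% without Lars2. The median SD of 0.115 became 0.327 with rescaled totals and 0.0982 without female 1 and male 1, and separate intervals in 1 sex went from a mean of 35.4% to 66.5% with rescaled totals. The female minus male share of protein-coding genes, -1.41 points, was 1.07 with Yam1 and Lars2 left out and ran from -7.83 to 4.8 when 1 library was left out, the highest without female 1. Leaving out 1 library at a time gave 8717 to 9193 genes between B and T cells, 12 to 17 between the sexes, 11524 to 11554 expressed genes, a top 100 share of 54.2% to 58.8% and a median SD of 0.106 to 0.121. Rescaling raised the 20 highest genes by factors of 1.19 to 1.39. The cause of these changes was not tested. Depth is unknown, and levels under 0.1 carry intervals too wide to rank.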
